A study of Mus musculus with 2 samples.

Results

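The genes of 10 liver chemokines, Ccl2, Ccl5, Ccl6, Ccl9, Ccl24, Cxcl1, Cxcl9, Cxcl10, Cxcl12 and Cxcl13, were followed on expression arrays of precancerous mouse liver. They were chosen by name, with earlier results of these data known. Each probe set that the array's annotation gives to 1 of these genes alone was read: 18 probe sets of 45037, for 10 genes of 18193. Both groups carried a Pik3ca transgene specific to hepatocytes, which activates phosphoinositide 3-kinase signalling. One group was wild type for Kdm3a, the gene of a demethylase of histone H3 lysine 9, and the other a Kdm3a knockout, and the comparison asks what differs in this liver without Kdm3a. Each genotype was represented by 1 array, so 2 arrays were compared. The promoter of the transgene, the cells in which Kdm3a was deleted, the age and sex of the mice, and any pooling of animals are not given by the labels. With 1 array a group there was no test, no error between animals and no replicate check, and every difference below describes these arrays, not the genotypes.

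Chemokines are small secreted proteins that bind to cell surfaces and matrix and draw leukocytes along their gradient through receptors coupled to G proteins. The CC and CXC families are named for whether the first cysteines of the protein are adjacent or separated by a residue. Most are switched on by inflammatory signals, with NF-kB acting downstream of tumour necrosis factor, interleukin-1 and Toll-like receptors, and interferon-gamma acting on Cxcl9 and Cxcl10. A few, such as Cxcl12 and Cxcl13, are made at rest and place cells within a tissue. In liver they come from Kupffer cells, which are the resident macrophages, and from recruited monocytes, endothelial cells, stellate cells and hepatocytes. In an extract of whole liver, fewer cells of a type and less RNA per cell cannot be told apart.

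Ccl2, Ccl6 and Cxcl10, which draw monocytes, other myeloid cells and activated T cells, had lower signals on the knockout array, and Cxcl13 and Ccl24 had higher ones. Ccl2 was at least 7.42-fold lower, Ccl6 was 2.43-fold lower and Cxcl10 was 2.16-fold lower. Cxcl13 was 4.34-fold higher and Ccl24 at least 2.87-fold higher. Ccl5, Ccl9, Cxcl1, Cxcl9 and Cxcl12 lay within 2-fold. Signals are probe-set intensities on a linear scale, and values under 46.5, the 40th percentile of the pooled signals, were raised to this floor, which makes a ratio with such a value a bound. Of the 10 ligands, 3 were thus at least 2-fold lower, where 8.96% of the 11693 genes kept by the signal filter were, and 2 were at least 2-fold higher, where 3.83% were. Among all kept genes 1048 were lower and 448 higher. That split was 796 and 685 after poly-A scaling, which matches the arrays on RNA controls added before labelling, and 1274 and 309 after hybridisation scaling, which uses controls added afterwards. A log2 ratio below 0, meaning a lower knockout signal, was found for 7 of the 10 ligands, where 52.2% of kept genes had one, and for 11 of their 17 kept probe sets, where 50.9% of kept probe sets had one. The median log2 ratio, knockout to wild type, was -0.53 for the 10 ligands and -0.02 for all kept genes. The latter was 0.15 with poly-A scaling and -0.16 with hybridisation scaling, while the ligand median was -0.36 and -0.66.

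**Figure D1:**
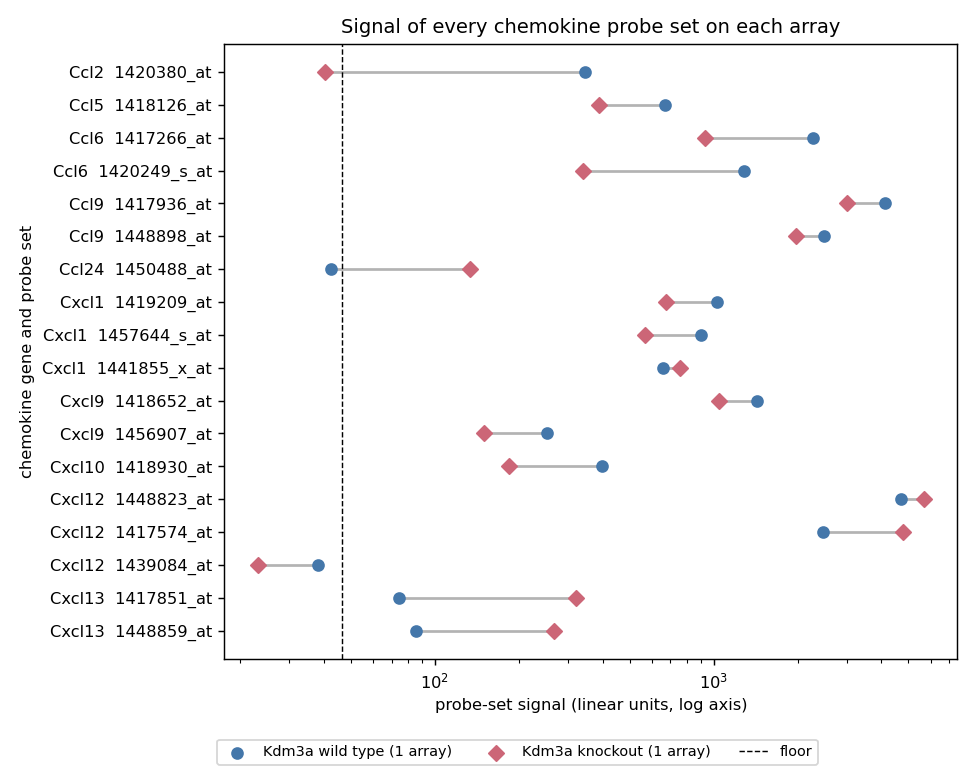
Signal of each of the 18 chemokine probe sets (vertical axis) on the Kdm3a wild-type array (circles) and the Kdm3a knockout array (diamonds), on a log axis; the dashed line is the floor of 46.5, and each point is 1 measurement with no error. The knockout point lies left of the wild-type point for Ccl2, Ccl5, Ccl6, Ccl9, Cxcl9 and Cxcl10, and right of it for Ccl24 and Cxcl13.

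All 10 ligands passed the signal filter, which kept a probe set if its mean over both arrays was at least 73.7, and 17 of their 18 probe sets did. The share of genes past 2-fold depends on signal. In the lowest quintile of mean signal, which holds Ccl24, 14.8% of genes were at least 2-fold lower and 8.17% at least 2-fold higher. In the next, which holds Ccl2, Cxcl10 and Cxcl13, these shares were 12.2% and 3.04%, and in the middle quintile, which holds Ccl5, 7.99% and 1.75%. They were 5.35% and 1.71% in the quintile of Ccl6, Cxcl1 and Cxcl9 and 4.4% and 4.49% in the highest, which holds Ccl9 and Cxcl12. Ccl2 and Ccl24 each had 1 array below the floor and passed through the other array, and a gene in that position needs a signal of at least 100.9 on the bright array to pass. It then differs by at least 2.17-fold whatever else holds, so the calls of Ccl2 and Ccl24 are partly set by the filter.

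**Figure D2:**
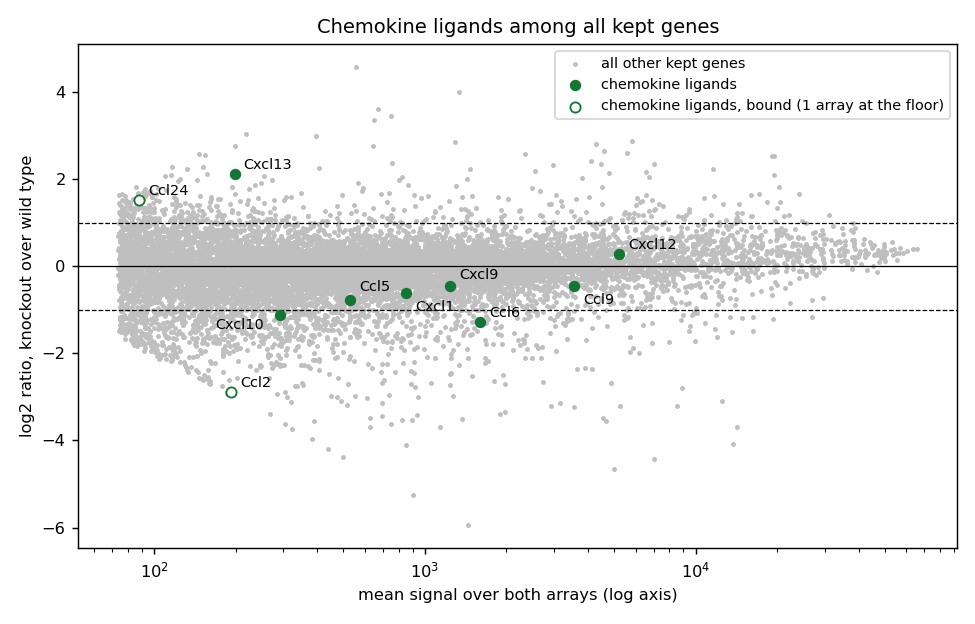
The knockout-to-wild-type log2 ratio (vertical axis) against the mean signal over both arrays (log axis) for every kept gene (grey) and for the 10 chemokine ligands (green; open circles are bounds); dashed lines mark 2-fold. Cxcl13 and Ccl24 lie above the upper line, Ccl2, Ccl6 and Cxcl10 below the lower line, and the spread of all genes widens towards low signal.

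Ccl2 draws inflammatory monocytes out of the blood through the receptor Ccr2. Its single probe set had a signal of 345 on the wild-type array and 40.4 on the knockout array, below the floor. The log2 ratio of at most -2.89 was undercut by 49 of the 11693 kept genes. Ccr2 itself had a signal of 287 on the wild-type array and 71.1 on the knockout array by its brightest probe set. That is a log2 ratio of -2.01, and the other kept probe set of Ccr2 stood at -1.38. Its 2 dimmer probe sets fell under the filter and went opposite ways, from 59.9 to 84.1 and from 69.2 to 2.54. The ligand and its receptor were therefore both lower in the knockout array, each at least 4.03-fold by its brightest probe set.

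Ccl6 and Ccl9 are rodent chemokines of myeloid cells that act through Ccr1. The probe sets of Ccl6 had signals of 2264 and 1281 on the wild-type array and of 931 and 339.8 on the knockout array. Both were lower in the knockout array, with log2 ratios of -1.28 and -1.91. Ccl9 had signals of 4107 and 2485 on the wild-type array and of 3011 and 1983 on the knockout array. Its log2 ratios of -0.45 and -0.33 had the same direction and lay within 2-fold. The 2 genes are neighbours on chromosome 11, between Ccl5 on one side and Ccl3 and Ccl4 on the other, and Ccl6 was the one past 2-fold by both of its probe sets. Ccr1 had a signal of 225 on the wild-type array and 52.7 on the knockout array, a log2 ratio of -2.10.

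Ccl5 recruits T cells, monocytes and eosinophils, with Ccr1 and Ccr3 among its receptors. Its 1 probe set had a signal of 671 on the wild-type array and 389 on the knockout array, which is 1.72-fold lower and within 2-fold. Ccl24 draws eosinophils through Ccr3 and is also made by macrophages. Its signal was 42.6 on the wild-type array, below the floor, and 134 on the knockout array, a log2 ratio of at least 1.52 that 120 kept genes exceeded. A floor at the 60th percentile brought it to 0.06. Ccr3 had signals of 3.52 and 6.22, below the floor on both arrays, as were the other 4 eosinophil markers read (Prg2, Epx, Siglecf and Il5ra). Of the 5 CC ligands, 4 had a ratio below 0, and Ccl24 had one above 0.

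Cxcl1 attracts neutrophils through Cxcr2. Of its 3 probe sets, 2 were lower on the knockout array, with signals of 1028 against 676 and of 904 against 565. The third had 657 on the wild-type array and 755 on the knockout array. The names of the second and the third mark possible matches to other transcripts. The log2 ratios were -0.60, -0.68 and 0.20, so the probe sets of Cxcl1 went both ways and all lay within 2-fold. Cxcr2 had signals of 20.4 and 11.7, below the floor on both arrays. Among the neutrophil markers, S100a9 (-2.18) and S100a8 (-1.73) had lower log2 ratios, while Ngp (-0.33) and Csf3r (0.52) lay within 2-fold.

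Cxcl9 and Cxcl10 are induced by interferon-gamma and guide activated T cells and natural killer cells through Cxcr3. Cxcl10 was read by 1 probe set, with a signal of 398 on the wild-type array and 185 on the knockout array. Its log2 ratio of -1.11 became -0.94 after poly-A scaling, which is within 2-fold. Cxcl9 had signals of 1427 and 253 on the wild-type array and of 1045 and 150.0 on the knockout array. Its log2 ratios of -0.45 and -0.75 were both below 0 and within 2-fold. Cxcl11, which shares Cxcr3, had 285 on the wild-type array and 314 on the knockout array, a log2 ratio of 0.14. Cxcr3 had 122 and 117, a log2 ratio of -0.06. So of the ligands of Cxcr3, Cxcl10 was past 2-fold, and the receptor's signal was nearly equal on both arrays.

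Cxcl12 holds haematopoietic cells and lymphocytes in tissues through Cxcr4, and Ackr3 takes it up without signalling through G proteins. Its brightest probe set had a signal of 4709 on the wild-type array and 5689 on the knockout array, a log2 ratio of 0.27. A second had 2461 on the wild-type array and 4792 on the knockout array, a log2 ratio of 0.96, and the third was below the floor with 38.0 and 23.2. Both kept probe sets were higher on the knockout array and within 2-fold. Cxcr4, under the filter, had 78.5 on the wild-type array and 31.3 on the knockout array, the latter below the floor. Ackr3 had 149 and 83.9, a log2 ratio of -0.83. The ligand was thus higher and the signals of both receptors lower on the knockout array, though no kept probe set was past 2-fold.

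Cxcl13 organises B cell follicles through Cxcr5 and is made by stromal cells and some macrophages. Its probe sets had signals of 74.2 and 85.7 on the wild-type array and of 322 and 269 on the knockout array. All 4 values were above the floor, and the log2 ratios were 2.12 and 1.65. The higher of these was exceeded by 33 of the 11693 kept genes. Cxcr5 had signals of 49.1 and 46.1, close to the floor. Of the B and plasma cell markers kept, 2 of 4 were past 2-fold upwards, beside 3.83% of all kept genes. These were the heavy chain Ighm (3.44) and Jchain (1.99), which links antibody units. Ms4a1 (0.18) and Cd79b (-0.63), which mark B cells, lay within 2-fold. The 5 kept probe sets of Ighm stood at 3.44, 3.23, 1.95, 0.51 and 0.19. All 5 have names that mark possible matches to other transcripts, of Ighm itself or of other genes. Without probe sets of such names 1 of 3 markers was past 2-fold, Jchain. Of the 5 CXC ligands, 3 had a ratio below 0, and Cxcl12 and Cxcl13 had one above 0.

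Where a gene had several kept probe sets above the floor, as 4852 genes did, their log2 ratios varied with a pooled SD of 0.42. It covers error within an array alone. The log2 ratio of Cxcl12 by its brightest probe set was smaller than this SD, and those of Ccl9 (-0.45) and Cxcl9 (-0.45) were close to it. Of the 6 ligands with several kept probe sets, 5 had them all in 1 direction, the exception being Cxcl1. In order from the lowest ratio, the ligands stood as Ccl2, Ccl6, Cxcl10, Ccl5, Cxcl1, Cxcl9, Ccl9, Cxcl12, Ccl24 and Cxcl13. From Ccl6 to Ccl9, each neighbour in this order differs from the next by less than that SD.

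**Figure D3:**
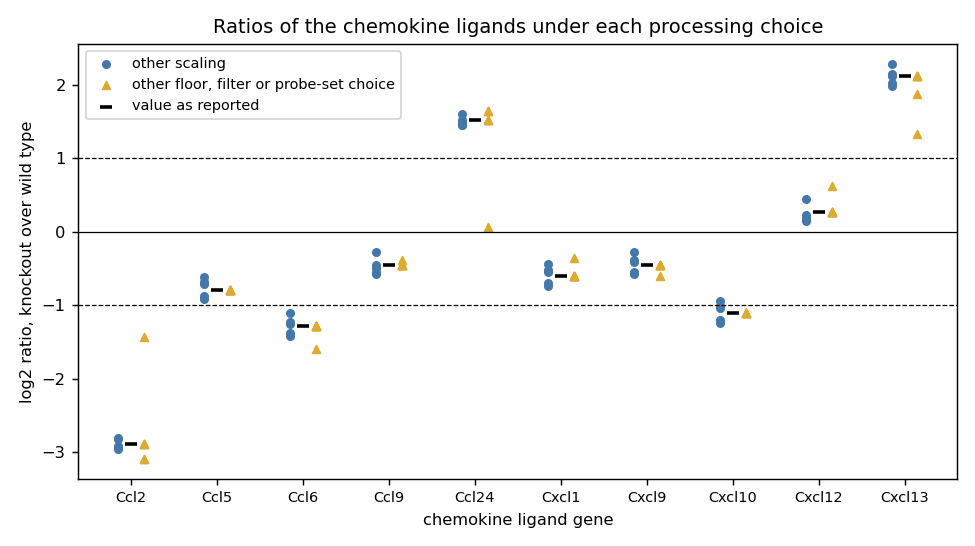
The knockout-to-wild-type log2 ratio of each chemokine ligand (vertical axis) as reported (black bar), under 5 other scalings of the arrays (circles), and under other floors, filters and choices of probe set (triangles); dashed lines mark 2-fold. All 10 ligands keep their sign, Cxcl10 crosses the line at -1 under 1 scaling, and Ccl24 comes close to 0 with the highest floor.

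The sequences just upstream of the ligand genes are shown for the 3 ligands that hold matches to motifs of the factors that act on inflammatory chemokines, Cxcl10, Cxcl1 and Ccl9, and for 2 of the 4 that hold none, Ccl6 and Cxcl13. The other ligands without a match are Cxcl9 and Cxcl12. The sequences are the 250 bases before the annotated start of each gene in RefSeq on GRCm38.p6, where 7 of the 10 ligands had an entry. Ccl2, Ccl5 and Ccl24 had none. Capitals mark the matches, and each sequence runs 5′ to 3′ on the strand of the gene.
Cxcl10 at chr5:92348890-92349139 (minus strand): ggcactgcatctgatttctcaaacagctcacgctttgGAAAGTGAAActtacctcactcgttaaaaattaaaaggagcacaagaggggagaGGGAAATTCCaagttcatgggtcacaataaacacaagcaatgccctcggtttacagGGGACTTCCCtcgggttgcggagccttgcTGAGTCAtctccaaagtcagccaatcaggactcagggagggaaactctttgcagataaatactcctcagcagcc
Cxcl1 at chr5:90890995-90891244 (plus strand): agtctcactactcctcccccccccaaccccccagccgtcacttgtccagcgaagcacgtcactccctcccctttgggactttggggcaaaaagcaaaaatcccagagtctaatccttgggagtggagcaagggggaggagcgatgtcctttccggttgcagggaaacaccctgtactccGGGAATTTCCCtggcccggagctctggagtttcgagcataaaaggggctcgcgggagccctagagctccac
Ccl9 at chr11:83578637-83578886 (minus strand): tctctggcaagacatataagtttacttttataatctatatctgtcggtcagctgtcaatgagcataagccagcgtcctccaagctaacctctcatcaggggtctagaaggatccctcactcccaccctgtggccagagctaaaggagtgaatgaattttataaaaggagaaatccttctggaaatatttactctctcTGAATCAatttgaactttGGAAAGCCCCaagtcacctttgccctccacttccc
Ccl6 at chr11:83593088-83593337 (minus strand): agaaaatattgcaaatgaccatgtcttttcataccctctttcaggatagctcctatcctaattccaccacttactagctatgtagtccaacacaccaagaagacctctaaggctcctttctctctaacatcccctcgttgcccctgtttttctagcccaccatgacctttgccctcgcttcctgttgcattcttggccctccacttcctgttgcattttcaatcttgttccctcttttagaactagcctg
Cxcl13 at chr5:95956689-95956938 (plus strand): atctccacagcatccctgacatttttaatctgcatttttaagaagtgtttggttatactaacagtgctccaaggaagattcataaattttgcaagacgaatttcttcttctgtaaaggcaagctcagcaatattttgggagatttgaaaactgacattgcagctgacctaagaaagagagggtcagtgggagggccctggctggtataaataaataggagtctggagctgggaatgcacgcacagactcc

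Both strands were searched for the consensus kB site, for the interferon-stimulated response element, for the gamma-activated site as TTCNNNGAA and for the AP-1 site as TGANTCA. The kB site had matches in Cxcl10, Cxcl1 and Ccl9. In Cxcl10 these were GGGAAATTCC, beginning 159 bases before the start, and GGGACTTCCC at 103 bases, and in Ccl9 the match was GGAAAGCCCC at 35 bases. The 2 matches in Cxcl1, GGGAATTTCC at 71 bases and GGAATTTCCC at 70 bases, overlap and read as 1 stretch. Cxcl10 also held the interferon-stimulated response element GAAAGTGAAA at 213 bases and the AP-1 site TGAGTCA at 74 bases, and Ccl9 held the AP-1 site TGAATCA at 53 bases. Among all 32851 windows of this length in the table, 3.9% held a kB match, 2.98% an interferon-stimulated response element, 7.02% a gamma-activated site and 6.75% an AP-1 site. Cxcl9, Cxcl12, Ccl6 and Cxcl13 had no match in these windows. A match is a run of letters, not a site shown to be bound.

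The other chemokine ligands went both ways. Of 25 such genes read, 12 passed the filter, of which 4 were lower by 2-fold or more, 1 was higher to that extent and 7 differed by less, and their median log2 ratio was -0.45. Of all kept genes, 8.96% were lower by 2-fold or more and 3.83% higher to that extent. A ratio below 0 was found for 8 of the 12 ligands, or 7 after quantile normalization, loess or poly-A scaling, beside 52.2% of all kept genes. The lower ones were Cxcl16 (-1.96), a membrane-bound ligand of Cxcr6, the platelet chemokine Pf4 (-1.75), Ccl8 (at most -1.74), a relative of Ccl2, and Cx3cl1 (-1.64), the ligand of Cx3cr1. The 2 kept probe sets of Cx3cl1 went opposite ways, the other at 0.56. Ccl8 was below the floor on the knockout array, so the filter alone set it at 2.17-fold or more. Ccl8 and Cx3cl1 lie in the lowest quintile of signal, where 14.8% of genes were lower by 2-fold or more. Ccl27a (1.73), a chemokine known from skin, was the higher one, by a probe set whose name marks possible matches to other transcripts. The other highest were Ppbp (0.48) and Ccl25 (0.22), and a second probe set of Ccl25 stood at 2.32 as a bound. The remaining 13 fell under the filter. Of these, 6 were above the floor on the wild-type array alone, 1 on the knockout array alone and 6 on neither. How all genes under the filter split in this way was not counted, so the split is not read as particular to chemokines. The wild-type-only ones, named after their values were seen, were Ccl3 (117 against 13.6), Ccl12 (118 against 4.88), Ccl17 (76.8 against 12.6), Ccl20 (87.8 against 38.9), Cxcl2 (82.2 against 29.9) and Cxcl5 (71.8 against 40.3), and the knockout-only one was Ccl22 (33.3 against 56.7). Ccl7, which stands beside Ccl2, was below the floor on both arrays, and Ccl4, which stands near Ccl6, had signals of 228 and 223.

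The receptors past 2-fold are ones known from monocytes and macrophages. Of 22 chemokine receptors read, 11 passed the filter. Their median log2 ratio was -0.53, and 3 were lower by 2-fold or more and 0 higher, beside 8.96% and 3.83% of all kept genes. In the lowest quintile of signal and the next, which hold these receptors, 14.8% and 12.2% of genes were lower by 2-fold or more. The lower receptors were Cx3cr1, with a signal of 409 on the wild-type array and 84.4 on the knockout array, Ccr1 and Ccr2. Ackr1, which binds inflammatory chemokines of both families without signalling, had 167 and 115, a log2 ratio of -0.53. Ccr6 (0.15), Cxcr6 (0.14) and Ackr4 (-0.03) had the highest ratios.

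The cytokine and NF-kB list had 19 kept genes and a median of -0.21, with 3 genes lower by 2-fold or more and 0 higher. Tnfaip3 (-1.75) and Nfkbie (-1.64), which encode inhibitors of NF-kB that are themselves induced by it, and the receptor Tlr2 (-1.21) were lowest. The probe sets of Nfkbie went both ways, the other standing at 0.61. Il1r1 (0.87), Il18 (0.54) and the inhibitor Nfkbia (0.36) were highest. Tnf and Il6 were below the floor on both arrays. Of 18 kept genes of the interferon-gamma pathway, 17 had a ratio below 0, or 15 after poly-A scaling, and the median was -0.63, with 3 lower by 2-fold or more and 0 higher. Ciita (-1.20), which controls class II antigen presentation, Irf8 (-1.10) and the receptor chain Ifngr2 (-1.04) were lowest, and Irf1 (-0.17), Irf9 (-0.12) and Iigp1 (0.02) highest. Ifng was below the floor on both arrays. The number of lower genes on the interferon-gamma list was 1 with poly-A scaling or quantile normalization and 5 with hybridisation scaling. On the arrays as deposited, 8.96% of all kept genes were lower by 2-fold or more, 3.83% were higher to that extent and 52.2% had a ratio below 0.

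All 9 kept leukocyte adhesion genes had a ratio below 0, or 8 after poly-A scaling, with a median of -0.56, and 3 were lower by 2-fold or more. The endothelial ligand Icam1 (-1.28), the leukocyte integrin chain Itgb2 (-1.17) and Vcam1 (-1.08) were lowest, and Selp (-0.16), Itgb1 (-0.20) and Itga4 (-0.22) highest. The 3 kept probe sets of Vcam1 ranged from -1.11 to 0.35. Of all kept genes, 52.2% had a ratio below 0 and 8.96% were lower by 2-fold or more.

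**Figure D4:**
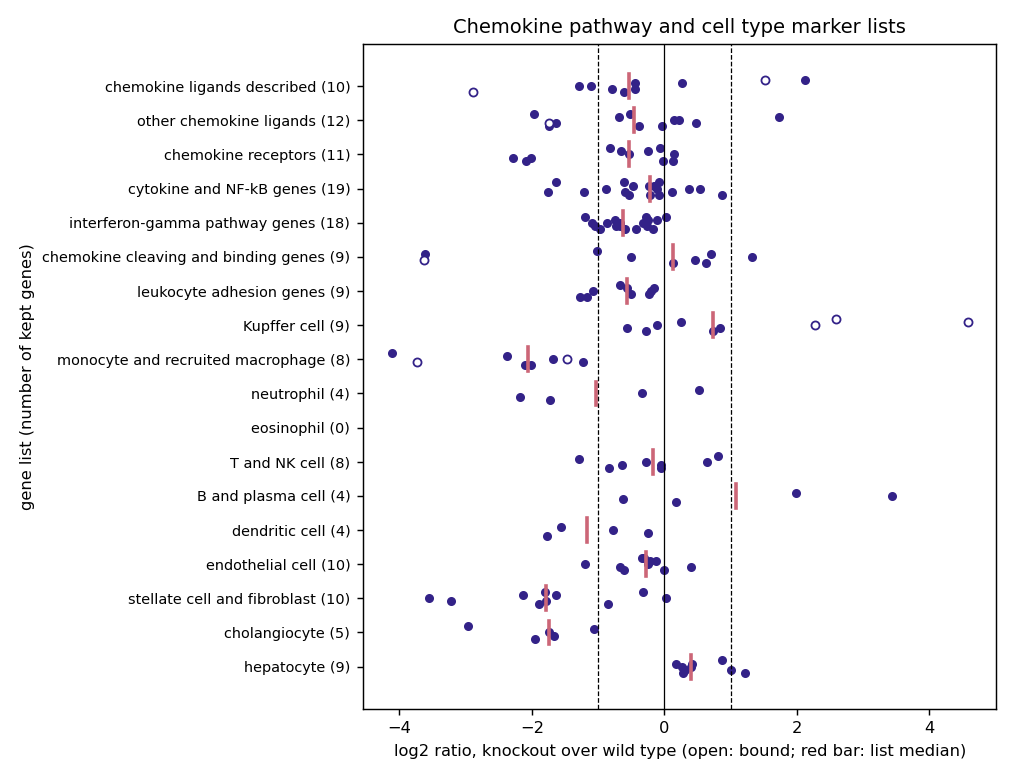
The knockout-to-wild-type log2 ratio (horizontal axis) of each kept gene on the chemokine, pathway and cell type marker lists (vertical axis, with the number of kept genes); filled points are values, open points are bounds, red bars are list medians and dashed lines mark 2-fold. The list of monocytes and recruited macrophages lies wholly below -1, and the 3 highest Kupffer cell markers are bounds above 2.

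Markers of the cells that make or answer these chemokines differed between the arrays too. Among all kept genes, 8.96% were at least 2-fold lower and 3.83% at least 2-fold higher. All 8 kept markers of monocytes and recruited macrophages were at least 2-fold lower, with a median of -2.06, among them Gpnmb (-4.12), the chitinase-like Chil3 (at most -3.73) and the lipid receptor Trem2 (-2.38). Their summed signal was 16327 on the wild-type array and 4942 on the knockout array. Chil3 and S100a4 were below the floor on the knockout array, so the filter alone set them at 2.17-fold or more. Itgam, which fell under the filter, had signals of 55.9 and 57.1, and without the filter 8 of 9 markers were lower. Fcgr1, counted as lower, had a second kept probe set at -0.43. Kupffer cell markers had a summed signal of 17626 on the wild-type array and 21118 on the knockout array, with 3 of 9 at least 2-fold higher. These were Cd163 (at least 4.58), Marco (at least 2.59) and Timd4 (at least 2.28), all below the floor on the wild-type array, so the filter alone set them at 2.17-fold or more. With the filter at the 70th percentile 1 of 7 Kupffer cell markers was past 2-fold, and 2 of 9 were with a 60th percentile floor. Of the others, Adgre1 (-0.56), Cd5l (-0.28) and Clec1b (-0.11) were lowest. Of the markers of stellate cells and fibroblasts, 7 of 10 were past 2-fold downwards, with summed signals of 35716 and 16134, led by Col3a1 (-3.56), Col1a2 (-3.21) and Acta2 (-2.13). The stellate cell markers Lrat (-0.85) and Reln (0.03) and the matrix gene Dcn (-0.32) were highest and lay within 2-fold. Of 4 dendritic cell markers 2 were lower, Itgax (-1.78) and H2-Ab1 (-1.56), with summed signals of 2929 and 1084. Cholangiocyte markers were lower in 5 of 5 cases, with summed signals of 2521 and 552, and in 2 of 5 with the higher floor at the 60th percentile. They were lower in 4 of 5 with poly-A scaling or with the mean of all kept probe sets. Tspan8 also had a kept probe set at 0.69, and Epcam one at -0.08. Some probe sets have names that mark possible matches to other transcripts, of the same or another gene. Without them, 1 of 2 dendritic cell and 1 of 3 neutrophil markers were lower. The part of these markers in the chemokine differences was not tested.

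Of 8 kept T and NK cell markers 1 was at least 2-fold lower, Nkg7 (-1.29), and 0 were higher, with summed signals of 977 on the wild-type array and 954 on the knockout array, and Cd4 and Ncr1 were below the floor on both. Neutrophil markers summed to 2345 and 930.5, and B and plasma cell markers to 530 and 2038, most of the latter being Ighm. Of 10 endothelial markers 1 was lower, Vwf (-1.20), beside 8.96% of all kept genes, with sums of 9420 and 8571. Nkg7 lay within 2-fold with a floor at the 60th percentile, and Vwf was not kept with a filter at the 70th. The 9 hepatocyte markers all had a ratio above 0, though 7 after quantile normalization and 6 after loess, with 2 past 2-fold, Tat and Hpd (1 to 3 under other scalings), and albumin (Alb), the main product of hepatocytes, had signals of 44118 and 53356. Kdm3a itself had a signal of 720 on the wild-type array and 61.6 on the knockout array by its 1 probe set, whose place relative to the deleted part is not known here.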

How the data were processed

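The authors deposited 1 linear intensity per probe set for each of 2 arrays. Per the labels' protocols, RNA of mouse liver was extracted and 250 ng of it labelled, and the submitters' processing notes name MAS5. Its settings and detection calls are not known here, and the genome build is not given in the sources used here. Without the top and bottom 2% of values, each array had a mean of 500.004, so they had been scaled before deposit.

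Of 45101 probe sets, 64 were controls, 34945 named 1 gene, 932 several and 9160 none. Names were updated through RefSeq gene identifiers. Values were floored at the 40th percentile, probe sets were kept at or above the median mean signal, and each gene took its brightest kept probe set, which left 11693 genes. Genes were counted at 2-fold on the knockout-to-wild-type log2 ratio. No test was possible. The members and gene lists were chosen with earlier results of these data known. Named genes are the members, their receptors, and up to 3 lowest and 3 highest kept genes of each list. The other genes named were singled out after their values were seen. There were 14 alternatives of scaling, filter, floor, probe-set choice and fold. The steps were tested on simulated data with changes put into bright genes alone, so calls near the floor were not covered. Python 3.11.15, pandas 2.3.3 and statsmodels 0.14.6 (loess span 0.3) were used.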

Additional observations from a re-analysis of the deposited data

How the results depend on the processing

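The number of arrays limits every value, and no alternative replaces a replicate. All 10 chemokine ligands kept the sign of their log2 ratio under the 12 alternatives other than fold, where they were kept, and the ligand median stayed between -0.66 and -0.36. No result past 2-fold changed sign. Signals near background limit Ccl2, Ccl24 and Cxcl13: with the floor at the 60th percentile their log2 ratios were -1.43, 0.06 and 1.33. No paired analysis was possible because each genotype has 1 array.

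With a 1.5-fold rule, 5 of the described ligands, 5 receptors, 6 cytokine and NF-kB genes and 10 interferon-gamma pathway genes were lower, and 1 cytokine and NF-kB gene and 3 cleaving and binding genes were higher. With a 3-fold rule, 1 described ligand was lower and 1 higher, 0 interferon-gamma pathway genes and 0 adhesion genes were lower, and 0 cleaving and binding genes were higher. Of all kept genes, 3.06% had a lower ratio than Nfkbie, itself 3.11-fold lower. A higher ratio than that of Ccl27a, itself 3.31-fold higher, was found for 0.547%. With the filter at the 70th percentile, 0 described ligands were higher, 2 other ligands and 0 receptors were lower, and 0 cleaving and binding genes were higher, fewer genes being kept. With the floor at the 60th percentile, 1 described ligand was higher, 2 other ligands were lower and 0 cleaving and binding genes were higher. Scaling on the poly-A controls gave 1 lower interferon-gamma pathway gene and 1 higher cytokine and NF-kB gene, quantile normalization gave 1 lower interferon-gamma pathway gene, and scaling on the hybridisation controls gave 5. Averaging all kept probe sets gave 2 higher other ligands. Another alternative left out probe sets whose names mark possible matches to other transcripts, of the same or another gene. With it, 0 other ligands and 1 cytokine and NF-kB gene were higher. The cause was not tested. The other alternatives left these counts within 1.5 times.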

Other observations

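Proteases that cut chemokines and proteoglycans that hold them on cell surfaces went both ways. Of 9 kept genes, 3 were lower by 2-fold or more in the knockout array, 1 was higher to that extent and 5 differed by less. Their median log2 ratio was 0.13. The shares of all kept genes were 8.96% lower and 3.83% higher. By its brightest probe set, Mmp2, a gelatinase that cleaves Cxcl12, had a signal of 573 on the wild-type array and 34.7 on the knockout array. That is at least 12.3-fold lower, with the knockout value below the floor, so the filter alone set it at 2.17-fold or more. A second kept probe set of Mmp2, above the floor on both arrays, was 4.94-fold lower. Mmp12, the macrophage elastase, had 1381 and 113, and the membrane protease Mmp14 had 1360.3 and 673. A second kept probe set of Mmp14 had a log2 ratio of -0.83, within 2-fold. Mmp9 was the higher gene, with 52.7 and 132. Dpp4, the peptidase that trims Cxcl10 and Cxcl12, had 2160.1 and 3341, a log2 ratio of 0.63, and its 4 kept probe sets ranged from -0.04 to 1.35. The heparan sulfate proteoglycans Sdc4 (0.71) and Sdc2 (0.46) lay within 2-fold.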
